A study of Homo sapiens with 16 samples.

Results

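The 8 genes TRAPPC6A, BLOC1S3, BCAT1, OLFML2A, EIF5A2, SYS1, TUBGCP6 and HDAC10 lie in or within 5 kb of 6 genomic sites that carried a BMAL1 peak in all 12 BMAL1 peak lists of the series. The sites were picked because their peak scores ranked lower in the U2OS-CHRONO line than in U2OS, so the difference between the lines is given as a description and was not tested. Joining the overlapping peaks of the 12 lists gave 20968 regions. Every list had a peak in 167 of them (0.796%), and the 6 sites are among these 167. TRAPPC6A and BLOC1S3 share 1 site, and so do TUBGCP6 and HDAC10.

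The libraries were made by chromatin immunoprecipitation and sequencing. U2OS is a human osteosarcoma cell line, and U2OS-CHRONO is derived from the same cells by its labels and name. For the BMAL1 libraries both lines received dexamethasone at 200 nM, a steroid that brings the cells' clocks into step. Cells were taken every 4 h, from 4 h ahead of the low point of a luciferase reporter driven by the BMAL1 promoter, with time labels of 0, 4, 8, 12, 16 and 20 h. Each line had 1 BMAL1 library per time, so the 6 times are not replicates and a spread over them holds time and library together. A Myc library from U2OS-CHRONO, whose target the series design names Myc-CHRONO, had no time or treatment label. The labels do not say how the CHRONO line was made or whether it is 1 clone, and 3 input samples were not analysed here.

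BMAL1 pairs with CLOCK to bind E-boxes, short DNA elements with the core CACGTG, and switches on clock genes and many output genes. CHRONO, encoded by CIART, is a known repressor of BMAL1 and CLOCK. PER and CRY proteins are the repressors that close the main feedback loop, and their genes are themselves targets of BMAL1 and CLOCK. The genes discussed here are not core clock genes: they serve vesicle transport, the microtubule cytoskeleton, translation, amino acid metabolism and protein or polyamine deacetylation.

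The U2OS lists held 337 to 6012 peaks and the U2OS-CHRONO lists 2429 to 9391, the latter being longer at every time. The U2OS list of 8 h was the shortest, and its peaks were the widest, with a median width of 743 bp. A rank in a longer list is lower for that reason alone. Each site was therefore ranked by its highest peak score among the same 167 regions in every list, rank 1 being the highest score. Entry to this set needed a peak in the U2OS list of 8 h, with its 337 peaks. Without the lists of 8 h, 614 regions were shared. The set is thus not neutral between the lines. At 0 h the TRAPPC6A/BLOC1S3 site ranked 12 in the set and 13 in the whole list of U2OS. In U2OS-CHRONO it ranked 122 and 295. A rank in the set is a place in an order, so a lower rank at 1 site and a higher rank at others are the same observation. The read depth is unknown. Scores are the authors' own values, whose definition is not stated, and were compared only within a list.

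The promoters of TRAPPC6A, BLOC1S3 and EIF5A2 lie under BMAL1 peaks of all 12 lists. Their sequences are shown here because the peaks sit over them and 2 of them hold the E-box core. They are the 250 bases before each start site, on the strand of the gene, from RefSeq (GRCh38.p14). Capitals mark CACGTG, which reads the same on both strands.
BLOC1S3, chr19:45178534-45178783, plus strand: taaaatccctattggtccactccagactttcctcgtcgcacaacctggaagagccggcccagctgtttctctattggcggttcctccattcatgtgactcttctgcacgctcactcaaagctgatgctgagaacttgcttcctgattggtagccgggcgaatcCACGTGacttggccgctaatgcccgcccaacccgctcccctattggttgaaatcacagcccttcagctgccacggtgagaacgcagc
TRAPPC6A, chr19:45178238-45178487, minus strand: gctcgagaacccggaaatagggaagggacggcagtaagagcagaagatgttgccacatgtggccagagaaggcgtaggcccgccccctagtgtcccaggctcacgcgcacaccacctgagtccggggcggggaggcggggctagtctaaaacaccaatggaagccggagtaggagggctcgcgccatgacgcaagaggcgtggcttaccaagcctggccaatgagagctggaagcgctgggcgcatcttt
EIF5A2, chr3:170908638-170908887, minus strand: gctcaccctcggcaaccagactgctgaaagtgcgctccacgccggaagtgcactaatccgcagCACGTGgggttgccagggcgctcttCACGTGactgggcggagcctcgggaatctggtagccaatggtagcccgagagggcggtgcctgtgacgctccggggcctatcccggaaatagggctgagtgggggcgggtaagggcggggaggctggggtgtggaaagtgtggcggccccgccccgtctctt

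The motifs CACGTG and CACGTT were searched on both strands of promoter windows of 300 bases, from 250 before to 50 after a start. All 8 genes had a window. Of the 5 windows touched by one of the sites, 2 held CACGTG, namely those of BLOC1S3 and EIF5A2, and CACGTT was in none of them. The element CACGTG was in 7.23% of all 34943 promoter windows and in 48.8% of the 86 windows touched by any of the 167 regions. CACGTT was in 5.35% and 17.4%. EIF5A2 held 2 copies of CACGTG, as 0.661% of all windows held 2 or more, and their first bases were 25 bp apart. The copies began 187 and 162 bp before the start site. In BLOC1S3 the CACGTG began 87 bp before the start. All 3 copies lay inside a BMAL1 peak at 6 of 6 times in each line, so the same motifs were covered where the rank was high and where it was low. A further CACGTG stood 14 bp after the start of a BCAT1 transcript, where no list had a peak.

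The site of TRAPPC6A and BLOC1S3 spanned chr19:45177822-45179285 (hg38). TRAPPC6A encodes a subunit of the TRAPP complexes, which tether transport vesicles in the secretory pathway, and BLOC1S3 a subunit of BLOC-1, a complex that helps to form lysosome-related organelles. The genes point away from each other, with starts 547 bp apart, and all 12 lists had a peak over both starts. The 12 peaks had 581 bp in common, from 45178237 to 45178817, which begins at the TRAPPC6A start and takes in the BLOC1S3 start at 45178784. The site ranked 12, 19, 18, 13, 20 and 16 of 167 in U2OS at 0, 4, 8, 12, 16 and 20 h. In U2OS-CHRONO it ranked 122, 130, 117, 138, 139 and 93. The lines did not overlap, and the best rank in U2OS-CHRONO, at 20 h, was still far below the worst in U2OS. The mean ranks were 16.3 ± 3.27 and 123 ± 17.1 (SD, n = 6 times), a mean difference of 64.0% of the set, the largest of all 167 regions in this ranking. Size and lead depended on the set ranked: over regions called in both lines at a time the difference was 26.0% (place 12 of 167), in whole lists 6.21% (place 17), and over the 614 regions of the 10 lists other than 8 h 42.2% (place 20). With each time left out in turn it took place 1 or 2 among the 167. In the whole lists its places were 13 to 20 for U2OS and 199 to 519 for U2OS-CHRONO.

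**Figure D1:**
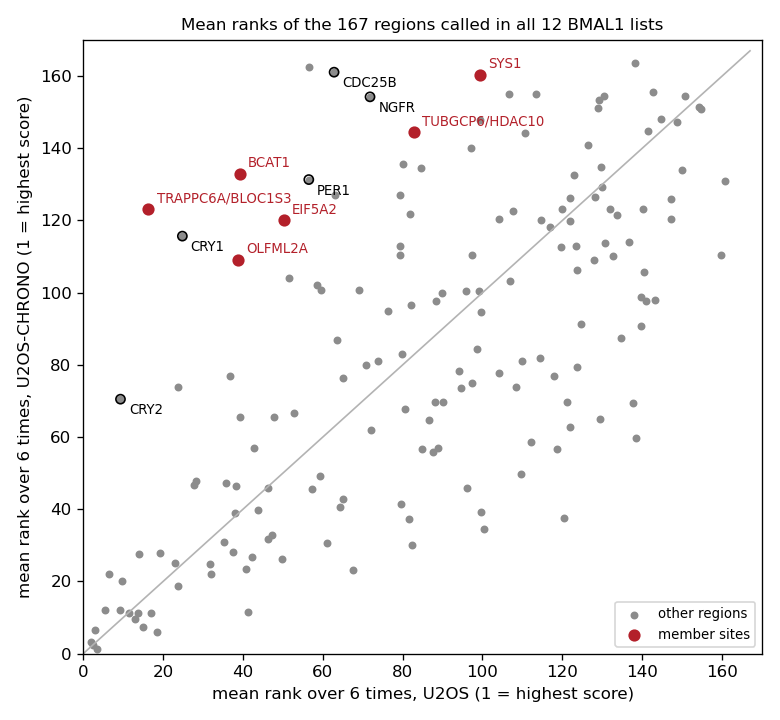
Mean rank over 6 times in U2OS (horizontal) and U2OS-CHRONO (vertical) of the 167 regions called in all 12 BMAL1 lists, rank 1 being the highest score. Red points are the 6 sites, open black circles the 5 regions most like them (labelled by nearest gene), and the line marks equal ranks. All 6 sites lie above the line, and the TRAPPC6A/BLOC1S3 site has a mean rank of 16.3 in U2OS and 123 in U2OS-CHRONO.

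The BCAT1 site spanned chr12:24909470-24910285. BCAT1 is the cytosolic aminotransferase that starts the breakdown of branched-chain amino acids. The site lay inside the gene body (24810024 to 24949340), and its centre was 6810 bp before the nearest annotated start, an internal one at 24903067. None of the 5 BCAT1 promoter windows had a peak in any BMAL1 list. Whether it lies in an exon or an intron was not analysed here. The ranks in U2OS were 33, 28, 49, 56, 42 and 27 at 0, 4, 8, 12, 16 and 20 h, and those in U2OS-CHRONO were 135, 153, 98, 146, 147 and 118. Again the lines did not overlap. The best U2OS-CHRONO rank fell at 8 h, a time at which the U2OS rank was among its lower ones. The mean difference was 56.1% ± 15.1 of the set (SD, n = 6 times).

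The site listed for OLFML2A, which encodes a secreted protein with an olfactomedin domain, spanned chr9:124771175-124772612. Its nearest protein-coding gene was NR6A1, an orphan nuclear receptor also known as germ cell nuclear factor. The NR6A1 start at 124771311 lay inside the site and under a peak in 11 of 12 lists, while the nearer edge of OLFML2A was 4521 bp away. In 9 of 12 lists the peak itself reached to within 5 kb of OLFML2A. The ranks in U2OS were 25, 30, 65, 22, 33 and 57 over the times, and 64, 85, 146, 137, 113 and 110 in U2OS-CHRONO. The site was lower in U2OS-CHRONO at each matched time, but the 2 ranges overlapped, since the worst U2OS rank was 65 and the best U2OS-CHRONO rank 64. In both lines the lowest rank fell at 8 h. The mean difference was 42.2% ± 16.3 (SD, n = 6 times). The NR6A1 promoter window, of which little lay in the part shared by all 12 peaks (124771518 to 124771905), held neither motif.

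EIF5A2 encodes the second isoform of the translation factor eIF5A, which carries the modified amino acid hypusine. Its site spanned chr3:170908377-170909918, over the start at 170908637 in 11 of 12 lists. The 12 peaks had 338 bp in common, from 170908639 to 170908976, and both CACGTG copies shown above lay in that stretch. The ranks were 44, 39, 35, 38, 75 and 70 in U2OS and 131, 105, 160, 109, 126 and 89 in U2OS-CHRONO. The lines did not overlap, but the matched difference varied widely, from 125 places at 8 h to 19 at 20 h. The mean difference was 41.8% ± 21.2 (SD, n = 6 times).

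**Figure D2:**
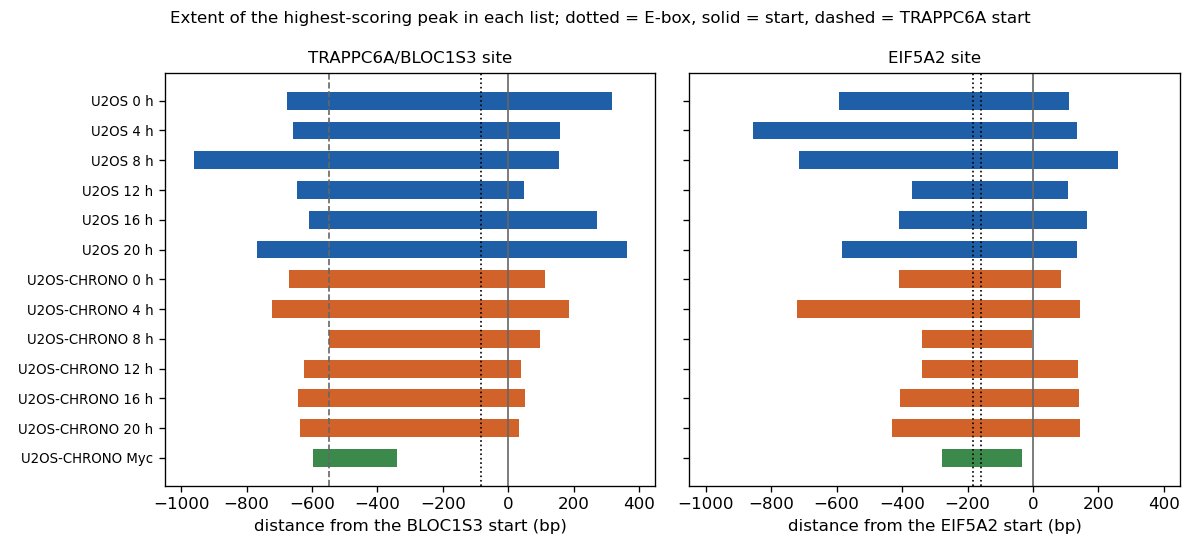
Extent in bp from the start site of the highest-scoring peak in each of the 13 lists at the TRAPPC6A/BLOC1S3 and EIF5A2 sites (U2OS blue, U2OS-CHRONO orange, Myc green), with upstream to the left. Dotted lines are the E-boxes, solid lines the BLOC1S3 or EIF5A2 start and the dashed line the TRAPPC6A start. All 12 BMAL1 peaks cover each E-box, and the Myc peak covers those of EIF5A2 but ends 254 bp from that of BLOC1S3.

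SYS1 encodes a Golgi membrane protein that brings the small GTPase ARFRP1 to the trans-Golgi. Its site, chr20:45358037-45358938, lay 3011 bp outside the gene, and the centre was 3461.5 bp before the first base of the gene, 45361949, and 4668 bp before the start of its promoter window, 45363156. The ranks were 87, 100.5, 103, 112, 77 and 117 in U2OS and 162, 154, 158.5, 163, 160 and 165 in U2OS-CHRONO, where equal scores share their mean rank. In U2OS-CHRONO the site stood near the end of the order at every time, and the spread over times was small (SD 3.88 against 15.1 in U2OS). The mean difference was 36.5% ± 8.62 (SD, n = 6 times). A set of 167 leaves little room below such ranks. In other sets the SYS1 difference was the largest of the 6 sites, not the smallest: 44.7% over regions called in both lines (the other 5 sites 19.8% to 26.4%), 23.3% in whole lists (4.33% to 9.06%) and 64.1% over the 614 regions (28.0% to 53.5%). In whole lists its places were 87 to 207 for U2OS and 887 to 2703 for U2OS-CHRONO.

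The site of TUBGCP6 and HDAC10 spanned chr22:50241053-50242048, inside TUBGCP6 and 3472 bp after its start. TUBGCP6 is a component of the gamma-tubulin ring complex, which nucleates microtubules, and HDAC10 is a deacetylase known to act on acetylated polyamines. The nearer edge of HDAC10 was 3135 bp away, and its start, at the far end of the gene, was 9714 bp from the centre of the site. The ranks were 69, 51, 79, 137, 94 and 67 in U2OS and 156, 145, 138, 128, 159 and 141 in U2OS-CHRONO. At 12 h the order was turned, with the U2OS rank 9 places below that of U2OS-CHRONO, and the ranges overlapped because of that U2OS library. In the whole lists the 12 h ranks were 316.5 of 1808 and 412 of 3919, so by place in the list, but not in percent of it (17.5% and 10.5%), the site was lower in U2OS-CHRONO at 12 h too. The mean difference was 36.9% ± 22.2 (SD, n = 6 times).

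**Figure D3:**
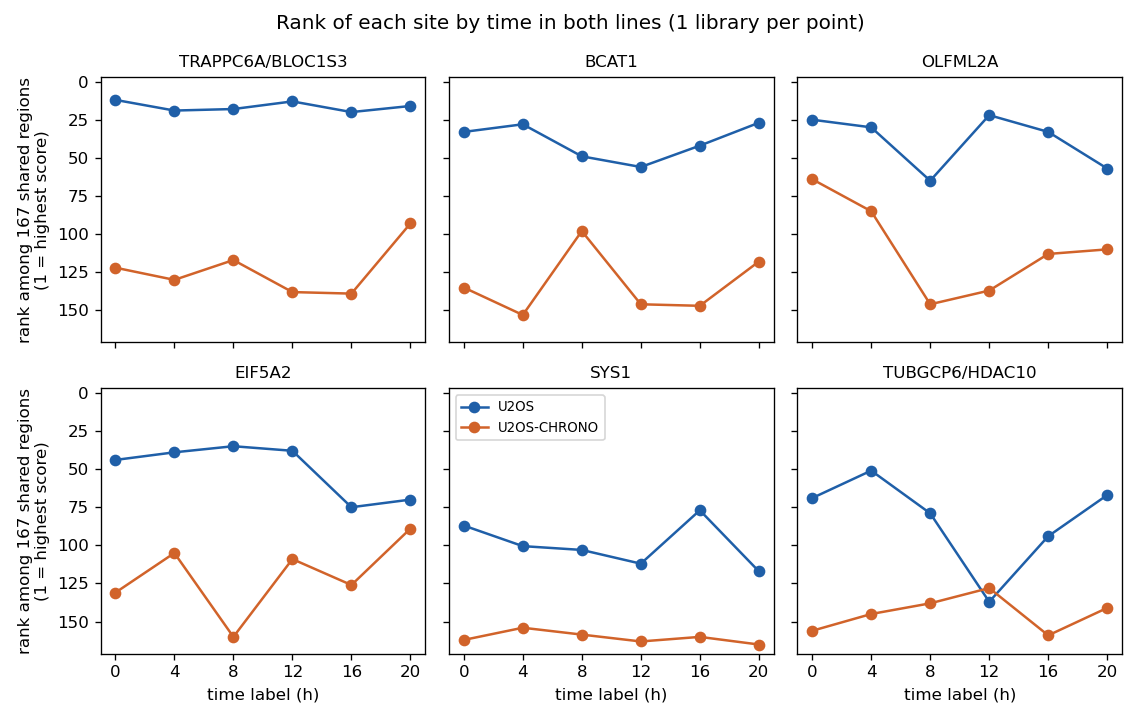
Rank of each of the 6 sites among the 167 regions (vertical, 1 at the top) by time label in h (horizontal) in U2OS (blue) and U2OS-CHRONO (orange), 1 library per point. The lines cross only at the TUBGCP6/HDAC10 site at 12 h, where U2OS ranked 137 and U2OS-CHRONO 128.

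Of the 6 sites, 5 were lower in U2OS-CHRONO at 6 of 6 times, and 4 had no overlap between the lines. Among all 167 regions 19.2% were lower at 6 of 6 times, 31.1% at 5 or more, and 10.2% were lower with no overlap. Since the sites were chosen by this contrast, nothing is read from these counts. The opposite pattern, a higher rank at 6 of 6 U2OS-CHRONO times, was as common, with 19.2% of the regions. Without the lists of 8 h, 5 sites were lower at all other times, as were 21.0% of the 167 regions. All 6 were when ranked over the 614 regions present in the 10 remaining lists, as were 17.4% of the 614. The median of the mean differences was 42.0% over the 6 sites and -1.15% over all 167 regions, whose values ran from -49.6% to 64.0%.

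**Figure D4:**
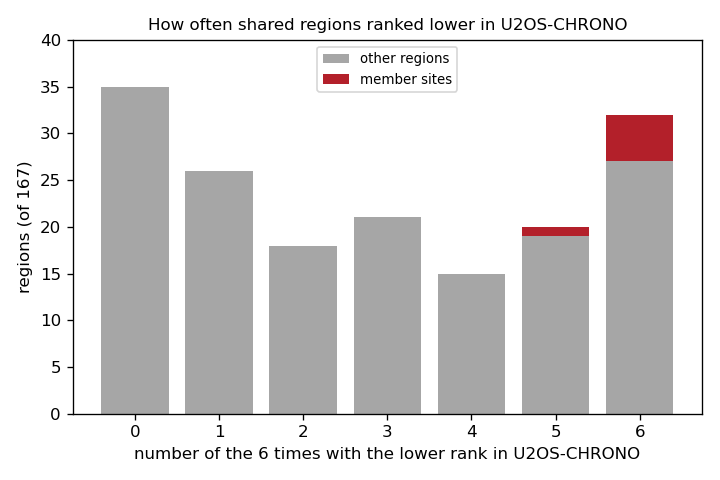
Number of the 167 regions (vertical) by the number of the 6 times with the lower rank in U2OS-CHRONO (horizontal), with the 6 sites in red. The 32 regions lower at 6 times include 5 of the sites, and the 20 lower at 5 times include 1.

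The order among the 6 sites also differed between the lines. The TRAPPC6A/BLOC1S3 site was the highest of the 6 in all 6 U2OS lists and in none of the U2OS-CHRONO lists, where it took place 2 to 4. There the OLFML2A site was the highest at 3 times, EIF5A2 at 2 and BCAT1 at 1. The SYS1 site was in place 5 or 6 in every list. The 6 sites had no common best time in either line: in U2OS-CHRONO the best rank fell at 20 h for TRAPPC6A/BLOC1S3 and EIF5A2, at 0 h for OLFML2A, at 4 h for SYS1, at 8 h for BCAT1 and at 12 h for TUBGCP6/HDAC10.

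The sites were not alone at the far side of this order. The 5 regions whose ranks over the 12 BMAL1 libraries were most like the mean of the 6 sites had a Pearson's r between 0.94 and 0.99 with it, a description in which the step between the lines carries most of the likeness. They lay near CDC25B, a cell cycle phosphatase, near NGFR, a neurotrophin receptor, and at the clock repressor genes CRY1, CRY2 and PER1. All 5 were lower in U2OS-CHRONO at 6 of 6 times. The mean ranks in U2OS and U2OS-CHRONO were 24.8 and 116 at CRY1, 9.33 and 70.5 at CRY2, and 56.5 and 131 in the region over the start of PER1. A second PER1 region, farther out, ranked 2 to 4 and 4 to 12. The PER2 site had U2OS ranks of 8 to 19 and U2OS-CHRONO ranks of 12 to 44, and like the second PER1 region it was lower in U2OS-CHRONO at 6 of 6 times. Ranks at the main DBP site lay between 1 and 3 in both lines, at TEF between 1 and 5, and in 1 of the 2 NR1D1 regions between 1 and 4. The other NR1D1 region had U2OS ranks of 7 to 30 and U2OS-CHRONO ranks of 8 to 18. In U2OS the ranks of TRAPPC6A/BLOC1S3, 12 to 20, lay within those of the BHLHE40 site, 10 to 23. In U2OS-CHRONO BHLHE40 stood at 4 to 15, higher than in U2OS at 6 of 6 times, and TRAPPC6A/BLOC1S3 at 93 to 139.

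In all, 27 further regions were lower at 6 of 6 times, and 6 of them had a larger mean difference than the SYS1 site, the smallest of the 6 sites in the ranking of the 167. Those 6 are the 5 regions just named and 1 region far from any gene, whose nearest gene CBLB was 136754 bp away (named here after its values were seen). The TUBGCP6/HDAC10 site was lower at 5 of 6 times. Among further regions with that count, the largest mean differences were 38.2% near PLD6 and FLCN, 33.2% near APLP1 and 29.8% in LMNTD1. The region near PLD6 and FLCN was thus above the TUBGCP6/HDAC10 (36.9%) and SYS1 (36.5%) sites by mean difference.

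The other regions of the set on the same chromosomes were ranked in the same way. On chromosome 19 the 11 other regions had a median of their mean differences of 2.79%, on chromosome 9 the 6 others 3.82%, and on chromosome 22 the 7 others 2.05%. On chromosomes 12, 3 and 20 the medians were -2.12% over 12, -3.39% over 16 and -10.0% over 5 other regions.

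The sites were picked by their BMAL1 peaks and ranks, though with earlier results of these data known. A Myc peak overlapped 4 of the 6 sites, against 70.7% of the 167 regions. The Myc peaks were at EIF5A2 (score 97.7, rank 252 of 2487), OLFML2A (92.6, rank 295), TRAPPC6A/BLOC1S3 (81.2, rank 439.5) and BCAT1 (66.1, rank 812). The SYS1 and TUBGCP6/HDAC10 sites, the lowest of the 6 in U2OS, had none. No Myc peak at the 6 sites reached a score of 100, which 9.29% of all 2487 Myc peaks did, and 34.7% of the 167 regions had a Myc peak at or above that score. The share with a Myc peak was 62.5% among the 32 regions lower at 6 of 6 times and 78.1% among the 32 regions higher at 6 of 6 times, a difference that was not tested. At EIF5A2 the Myc peak, 170908670 to 170908914, covered both CACGTG copies. At TRAPPC6A/BLOC1S3 it spanned 45178188 to 45178443, over the TRAPPC6A start, and its end lay 254 bp short of the CACGTG of BLOC1S3.

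A start site lay inside 3 of the 6 sites, against 34.1% of the 167 regions. The other 3 sites, at BCAT1, SYS1 and TUBGCP6/HDAC10, lay between 3461.5 and 6810 bp from the nearest start or first base of a gene. Apart from the sites, the windows of the 8 genes held 10 other regions with a BMAL1 peak, 6 of them in 1 list alone, and none with a Myc peak. The most frequent was 45357299 to 45357711 on chromosome 20, near SYS1, with a peak at 3 times in each line. A region at 124812419 to 124812869 on chromosome 9, in OLFML2A, was called at 3 times in U2OS-CHRONO and at none in U2OS. The U2OS-CHRONO lists were longer at every time, so nothing is read from that difference.

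Partner genes of the 8 were examined in 8 lists of 97 genes, by any BMAL1 peak in the gene or within 5 kb. Of the 89 partners, 41 (46.1%) had a peak in at least 1 list, against 41.5% of all 20037 protein-coding genes. None had a peak in all 12 lists, against 0.804% of all genes, and 11 (12.4%) had a Myc peak, against 9.80%. The shares over all 89 partners were thus near the background, but the Myc peaks were spread unevenly over the lists. Of the 11 partners with a Myc peak, 6 were among the 14 TRAPP partners. Each other list had between 0 and 2, and this difference, seen after the values were known, was not tested.

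The counts by line that follow come from lists that were longer in U2OS-CHRONO at every time. No share of all genes with such differences is given beside them, so nothing is read from them about single genes. Among the TRAPP subunits 5 of 14 partners had a BMAL1 peak, with TRAPPC2L in 11 lists and TRAPPC9 in 6. Of the 11 BLOC-1 and BORC partners 5 had one, and BLOC1S1 had its peaks at all 6 times of U2OS-CHRONO and at none of U2OS, while BORCS6, of the lysosome-positioning complex BORC, had them at 4 U2OS and 6 U2OS-CHRONO times. In the SYS1 list 8 of 11 partners had a peak, among them ARFRP1, the GTPase recruited by SYS1, at 3 U2OS and 4 U2OS-CHRONO times, and NAA30, a subunit of an N-terminal acetyltransferase, at 3 and 6. Of the 11 gamma-tubulin partners 3 had one, and TUBGCP3 led with 5 lists.

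Among the 10 other histone deacetylases 6 had a peak, HDAC9 at 3 U2OS and 6 U2OS-CHRONO times and HDAC4 at 4 and 4. In the polyamine and hypusine list 5 of 13 partners had one. ODC1, the first enzyme of polyamine synthesis, had peaks at 2 and 4 times, and EIF5A, the ubiquitous relative of EIF5A2, at 0 and 1. Of the 10 branched-chain amino acid partners 6 had one. BCKDHA, a subunit of the dehydrogenase that acts after BCAT1, had peaks at 6 U2OS and 5 U2OS-CHRONO times. Of the 9 olfactomedin family partners 3 had one, with OLFM2 in 6 lists.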

How the data were processed

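The deposited files were 13 peak lists, each with the chromosome, start, end, name and score of its peaks. The score is the authors' deposited value, and its definition is not stated. Peak names begin with MACS, and MACS 1.4.2, HOMER 4.10.3, bedtools and hg38 stand in the submitters' processing notes without roles. Aligner, control and depth are not stated there, so how far depth enters a score is unknown. Peaks were taken as called per library.

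Peaks of the 12 BMAL1 lists sharing at least 1 bp were joined into regions. A region's score in a list was that of its highest peak, and ties shared their mean rank. Ranks were taken over the 167 regions present in all 12 lists, and differences are U2OS-CHRONO minus U2OS, in percent of the 167. No test was run, because the sites were chosen by this contrast and each line had 1 library per time. The members and gene lists were chosen with earlier results of these data known. Genes and promoters came from RefSeq tables of GRCh38.p14, the assembly of hg38, and all 97 partner symbols matched. Named regions were the 8 genes, the 5 most alike regions, the 3 nearest misses and 10 clock genes as reference, of which those a result turned on are given. Partners were to be named where they had a peak in all 12 lists. None had, so the partners named were chosen after their values were seen. Ranks and joining were tested on simulated data. Alternatives changed the ranked set, the score, the score minimum, the joining, the list length, the windows and the times. Python 3.11.15, NumPy 2.4.6 and matplotlib 3.10.9 were used.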

Additional observations from a re-analysis of the deposited data

Results flagged for a closer look

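Among 18 sets of 6 values (the ranks of each site in each line, and their difference), 1 held a value far from the others. At the TUBGCP6/HDAC10 site the difference at 12 h was -9 places, U2OS being lower, while the other 5 times ran from 59 to 94. The gap to the next value was 0.66 of the whole range. By chance about 1 in 20 such sets would hold one. The U2OS peak at 12 h was also the narrowest at that site, with 207 bp against 503 to 995 bp at the other U2OS times. The part of that library in the value was not tested.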

How the results depend on the processing

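The alternatives gave 68 mean differences of single sites, all positive, from 4.33% to 67.5% of the set ranked. The score minimum gave them for 2 sites only, and equal list lengths for none. The order of the sites by this difference was not stable, with SYS1 the largest of the 6 over whole lists, over regions called in both lines and over the 614 regions. The number of sites lower at every time was 5 or 6 with each time left out in turn and 6 without 12 h. It was 6 over the 614 regions of the 10 lists other than 8 h (chosen after seeing the data), of which 17.4% were lower. Without each time in turn the median difference was 39.1% to 46.1%, and 19.8% to 22.2% of the regions were lower at all remaining times. Over whole lists the median difference was 6.12% of the list length. By place in the list, 31.1% of the 167 regions were lower at 6 of 6 times, where the U2OS-CHRONO lists were longer at every time. Over regions called in both lines at a time the median difference was 24.8%. With a score of at least 100, 53 regions were left in all 12 lists and 2 of the 6 sites, TRAPPC6A/BLOC1S3 and BCAT1, both lower at 6 of 6 times. With a Myc score of at least 100, 0 sites had a Myc peak, against 34.7% of the 167 regions. With both lists of a time at equal length, 6 U2OS-CHRONO peaks of the sites fell below that length and were counted as lower. No paired analysis was possible because the result comes from no test, the sites having been chosen by this contrast. The differences matched by time are given as a description. Depth is unknown, so a lower rank cannot be told apart from higher scores at other regions.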
